A study of Homo sapiens with 2 samples.

Results

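The DNA methyltransferases and TET enzymes, with UHRF1, were read in SBC-3 cells, which are an adherent line of small-cell lung cancer (SCLC), after transfection of either #1 siHOTAIR or siGFP. #1 siHOTAIR is a small interfering RNA (siRNA) against the long noncoding RNA HOTAIR, and siGFP, which targets green fluorescent protein, was the control. Both cultures were of the same line, and 20 nmol/L of siRNA is given for transfection; the time from transfection to RNA extraction for the arrays is not given in the sources used here. Cy3-labelled RNA of each culture went onto 1 one-colour Agilent array, so there were 2 arrays, 1 per condition, no replicate and no P-value, and culture, array and siRNA cannot be told apart. The 8 genes DNMT1, UHRF1, DNMT3A, DNMT3B, DNMT3L, TET1, TET2 and TET3 were selected with their values on these arrays known, so the ratios below are a description. They are 8 of a family fixed by name, among 19061 genes with a named probe. A probe was assigned to a gene by its transcript accession, and this gave 14 probes and 22 spots for 7 of the 8 genes. TET3 had no matched probe and no value is given for it.

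DNA methylation in mammals is the addition of a methyl group to cytosine, mostly in CpG dinucleotides. DNMT1 copies the methylation of the parent strand to the new strand after replication, and UHRF1 binds hemimethylated DNA and brings DNMT1 to it. DNMT3A and DNMT3B methylate DNA that carried no methyl group before, and DNMT3L is a catalytically inactive partner of both that is known from germ cells and embryonic stem cells. TET1, TET2 and TET3 oxidize methylcytosine in steps, with 2-oxoglutarate as a cosubstrate, and the oxidized bases are lost by replication or removed by base excision repair. HOTAIR is known for binding the histone methyltransferase complex PRC2. None of these arrays measured DNA methylation or protein.

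The sequences that define the comparison and the starts of the genes with the largest or the most unequal ratios are shown first. #1 siHOTAIR is given from the study's supplementary text, 5′ to 3′, with the seed of the antisense strand, bases 2 to 8, in capitals.
#1 siHOTAIR antisense: uCUCUCUGuacucccguucuu
#1 siHOTAIR sense: gaacgggaguacagagagauu

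The promoters are from RefSeq on build GRCh38.p14, 300 bases each from 250 before to 50 after the transcript start, read 5′ to 3′ along the gene's strand, with every CpG in capitals. DNMT3B is shown because its probe had the highest ratio of the family, and DNMT3A and TET2 because their probes disagreed and the table holds several starts for each. Of the 6 DNMT3A starts, the first in the gene and the first of those far inside it, 90.3 kb in and labelled internal, are shown. Starts 0.107 and 0.665 kb inside the gene are not shown. DNMT3B lies at chr20:32779602-32779901 on the plus strand. The DNMT3A windows lie at chr2:25342541-25342840 and chr2:25252266-25252565 on the minus strand, and the TET2 windows at chr4:105145625-105145924 and chr4:105146626-105146925 on the plus strand.
DNMT3B: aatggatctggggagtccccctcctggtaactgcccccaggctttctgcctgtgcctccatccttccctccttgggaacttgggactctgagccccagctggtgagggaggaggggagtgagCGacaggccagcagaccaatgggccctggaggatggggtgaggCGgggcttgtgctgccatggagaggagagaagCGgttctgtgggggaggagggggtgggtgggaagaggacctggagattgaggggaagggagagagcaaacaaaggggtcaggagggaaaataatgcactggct
DNMT3A first start: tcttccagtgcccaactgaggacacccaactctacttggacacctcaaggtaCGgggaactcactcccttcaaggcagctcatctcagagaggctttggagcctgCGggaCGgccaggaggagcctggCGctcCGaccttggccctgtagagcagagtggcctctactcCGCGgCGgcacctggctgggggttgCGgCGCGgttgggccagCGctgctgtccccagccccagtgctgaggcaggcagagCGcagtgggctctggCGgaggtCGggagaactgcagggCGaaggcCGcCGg
DNMT3A internal start: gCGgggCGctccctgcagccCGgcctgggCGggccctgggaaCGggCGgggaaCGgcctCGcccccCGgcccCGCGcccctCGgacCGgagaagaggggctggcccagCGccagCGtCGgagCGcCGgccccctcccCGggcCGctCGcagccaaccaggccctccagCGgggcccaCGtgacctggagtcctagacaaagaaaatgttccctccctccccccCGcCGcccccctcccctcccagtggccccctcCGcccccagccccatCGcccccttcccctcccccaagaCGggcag
TET2 upstream start: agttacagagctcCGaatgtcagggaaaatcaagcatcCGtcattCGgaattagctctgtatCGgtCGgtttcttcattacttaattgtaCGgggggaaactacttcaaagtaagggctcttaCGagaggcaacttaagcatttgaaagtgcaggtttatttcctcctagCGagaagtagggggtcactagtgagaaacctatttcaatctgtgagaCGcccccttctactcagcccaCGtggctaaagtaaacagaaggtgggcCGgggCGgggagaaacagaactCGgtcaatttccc
TET2 downstream start: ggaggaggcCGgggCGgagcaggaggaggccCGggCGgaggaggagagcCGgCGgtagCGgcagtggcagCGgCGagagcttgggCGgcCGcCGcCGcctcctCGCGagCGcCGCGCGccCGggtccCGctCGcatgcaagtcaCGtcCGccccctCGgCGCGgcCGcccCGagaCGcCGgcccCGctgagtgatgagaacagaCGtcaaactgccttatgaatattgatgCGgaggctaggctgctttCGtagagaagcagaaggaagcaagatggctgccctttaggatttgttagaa

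The windows differed in CpG content. The DNMT3B window held 3 CpG, and 24.5% of the 35116 promoters in the table held as few, against a median of 14. It starts 17.5 kb inside the gene and is the DNMT3B start that the table holds. The first DNMT3A window held 18 CpG and the internal one, 90.3 kb inside the gene, 28, and all 6 DNMT3A windows of the table held 18 to 46. The TET2 windows held 13 and 35. The GC box GGGCGG, searched on both strands, was in 4 of the 6 DNMT3A windows, the internal one shown but not the first, and in both TET2 windows. It was not in the DNMT3B window and is in 45.0% of all promoters. The letters TTTCGCG or TTTGGCG, which resemble E2F sites, were in the DNMT1 window and in 2 of the 3 UHRF1 windows and are in 3.19% of all promoters on either strand. The motifs were chosen with the sequences in view. A match is a description of letters, and which start each probe's transcript uses is not known here.

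The value of a spot is its processed signal, an intensity from which the scanner software had subtracted the background. There were 62976 spots per array. Leaving out controls, 58717 remained, and the scanner software marked 55.5% (#1 siHOTAIR) and 58.3% (siGFP) of them as well above background. Ratios are log2 of #1 siHOTAIR over siGFP after each array was set to its own 75th percentile, 650.3 and 629.9. Comparison needed 50% or more of a probe's spots to be well above background on either array. This left 24117 probes, 21428 of which met it on both arrays. The measurement SD of a ratio was taken from the spread of probes with 10 spots at the same signal. It covers error within an array and leaves out any difference between cultures. HOTAIR itself, the targeted RNA, had 1 spot with a signal of 108 against 244, 57.2% lower in #1 siHOTAIR-transfected cells. Its log2 ratio was -1.22, with a measurement SD of 0.22, and this ratio was -0.73 without background correction. Of the SCLC neuroendocrine markers, NEUROD1, with a log2 ratio of -0.85, and DLL3, with 0.21, were well above background on both arrays, whereas INSM1 and SYP were so on neither. CHGA, a granule protein, was well above background after #1 siHOTAIR only, at 72.2 against 10.2 and at least 2.44-fold higher, and NCAM1 likewise, at 25.5 against 7.20, for which no fold is given. YAP1, a marker of the non-neuroendocrine class, was measured on both. Of 5 epithelial markers, KRT8 (0.10) and KRT18 (-0.44) were measured on both arrays, and CDH1 was well above background on neither. EPCAM was well above background on the siGFP array only. KRT19 was so on the #1 siHOTAIR array only, at 39.4 against 27.0, and its 2 spots had log2 ratios of 0.14 and 0.86. Markers of other cell types were also read. On both arrays, 2 of 5 fibroblast markers were measured, COL1A1 at 0.96 and COL1A2 at -0.04, 2 of 5 immune markers, PTPRC at 0.75 and CD68 at 0.63, and 1 of 4 endothelial markers, CDH5 at -0.05. COL3A1, DCN, LUM, CD3E, PECAM1, VWF and KDR were so on neither. COL1A1 passed 2-fold without scaling, at 1.01. COL1A1, PTPRC and CD68 thus had higher values after #1 siHOTAIR, and their part in the results was not tested.

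Both arrays measured 11 of the 14 probes of the family well above background, 3 were so on neither array and 0 on a single one. The 11 belonged to 6 genes. At a change of at least 2-fold, 1 of the 11 was higher, the DNMT3B probe, and 1 was lower, a TET2 probe. The background on these arrays was 3.30% of all probes compared that were at least 2-fold higher and 4.10% that were lower, or 1.5% and 1.54% of the probes well above background on both arrays. Among all genes compared, read by the probe with the highest mean signal, 6.15% changed at least 2-fold in either direction. The ratios of the 11 probes ran from -1.91 to 1.79 with a median of -0.08, against 0.03 for all probes on both arrays. Of the 11, 5 were above 0 and 6 below, and 7 lay beyond 2 measurement SD. The share of all probes beyond 2 measurement SD was not computed, so this count is not read as a trait of the family. The error given by the scanner software was larger than this SD for each of the 7 except the TET2 probe with 2 spots (0.160 against 0.162). For the UHRF1 probe with 2 spots it was 0.14 against 0.06. The ratios of this UHRF1 probe and of the DNMT3A probe above 0 were under 2 software errors.

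**Figure D1:**
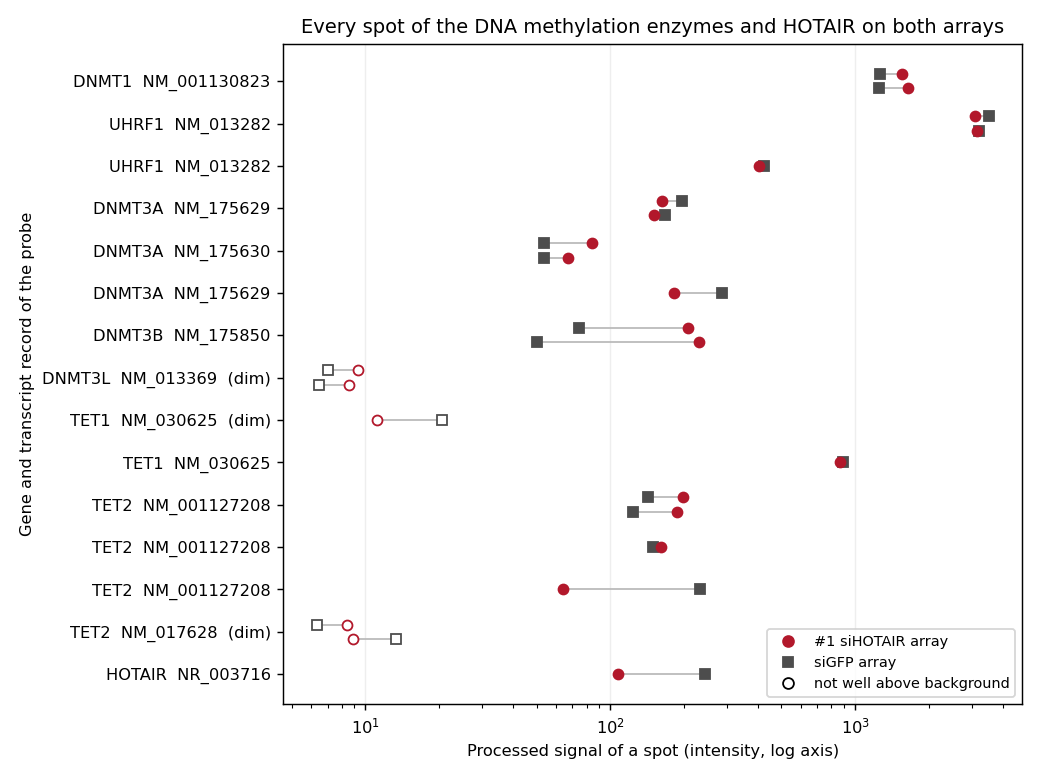
Processed signal of every spot of the DNA methylation enzymes and of HOTAIR, on a log axis, by gene and transcript accession. Circles are the #1 siHOTAIR array, squares the siGFP array, and open symbols are not well above background; the DNMT3B spots read 207 and 230 against 74.8 and 50.1, and DNMT3L lies near the floor on both arrays.

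The maintenance pair stayed within 2-fold by all 3 of its probes. DNMT1, the maintenance methyltransferase, had 1 probe with 2 spots, which read 1559 and 1649 after #1 siHOTAIR and 1260 and 1253 after siGFP. Both spots were higher on the #1 siHOTAIR array, and they are repeats of 1 probe within an array, not replicates of the condition. The log2 ratio was 0.31, or 1.24-fold, with a measurement SD of 0.06 and a software error of 0.14. UHRF1, its recruiter, had 2 probes. The probe with 2 spots read 3100 and 3155 against 3515 and 3203, a log2 ratio of -0.15 with an SD of 0.06. The other UHRF1 probe, with 1 spot, read 406 against 423, a log2 ratio of -0.10 with an SD of 0.11. The UHRF1 probes therefore differed from each other by 0.05, where the median difference over 2276 genes with 2 probes was 0.16. Scaling to the spike-in RNA, which raised all ratios by 0.14, brought UHRF1 to -0.00 and 0.04 and DNMT1 to 0.45, so the direction of UHRF1 is not settled by these arrays.

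The de novo enzymes gave the largest increase. DNMT3B was read by 1 probe with 2 spots. The spots read 207 and 230 after #1 siHOTAIR and 74.8 and 50.1 after siGFP. Each spot was higher on the #1 siHOTAIR array, and the 2 spots are repeats of 1 probe within an array. Before any background correction, the median pixel signals were 302 and 325 against 172 and 141, over local backgrounds of 63 to 67. The log2 ratio of the probe was 1.79, or 3.45-fold, with a measurement SD of 0.16 and a software error of 0.19. Of the 21428 probes on both arrays, 27, or 0.126%, were at least as high. Of 4458 probes with 2 spots on both arrays, 0.942% had both spots at least 2-fold higher, and DNMT3B was among them.

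The DNMT3B spots agreed in direction and differed in size. Their log2 ratios were 1.43 and 2.15. The gap of 0.73 was reached by 81 of the 4458 probes with 2 spots, or 1.82%, against a median gap of 0.09. The spots differed 1.11-fold on the #1 siHOTAIR array and 1.49-fold on the siGFP array, so most of the gap lay in the dimmer array. The size of the ratio depended on how the background was handled, and it was 1.06 with normexp correction, a model-based background correction, and 0.96, just under 2-fold, with no correction. The ratio was above 0 under every setting that gave a value, and with only spots outside the first rows there was none.

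Both DNMT3B spots, in rows 13 and 114, lay in the first 144 of the 384 rows of the array, which hold 37.5% of the spots. Of the probes with 2 spots on both arrays, 10 of 643 with both spots in these rows were at least 2-fold higher on both spots (1.56%), as were 13 of 1768 with neither spot there (0.735%). The 54 and 53 spots within 5 rows and columns of the DNMT3B spots had median log2 ratios of 0.05 and 0.00. DNMT3B has no spot outside these rows, and the part of array position in its ratio was not tested.

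DNMT3A had 3 probes on both arrays, and they did not give 1 direction. The probe with 1 spot, for transcript NM_175629, read 182 against 285. It was 38.1% lower in #1 siHOTAIR-transfected cells, with a log2 ratio of -0.69, an SD of 0.14 and a software error of 0.22. The second probe for NM_175629 had 2 spots, which read 163 and 151 against 196 and 167. Its log2 ratio of -0.25 was under 2 measurement SD of 0.15. The probe for transcript NM_175630 read 84.3 and 67.0 against 53.7 and 53.8, a log2 ratio of 0.44 with an SD of 0.20. Its software error was 0.22, so the ratio was under 2 such errors. The probes for NM_175629 were thus below 0 and the probe for NM_175630 above 0, and none changed 2-fold. Their range of 1.13 was reached by 16 of 309 genes with 3 probes, or 5.18%, against a median range of 0.34. Under the settings run, the lowest DNMT3A probe stayed between -0.72 and -0.55 and the NM_175630 probe between 0.23 and 0.58. DNMT3L had 1 probe, whose 2 spots read 9.29 and 8.56 against 7.06 and 6.45, not well above background on either array, so no fold change is given.

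**Figure D2:**
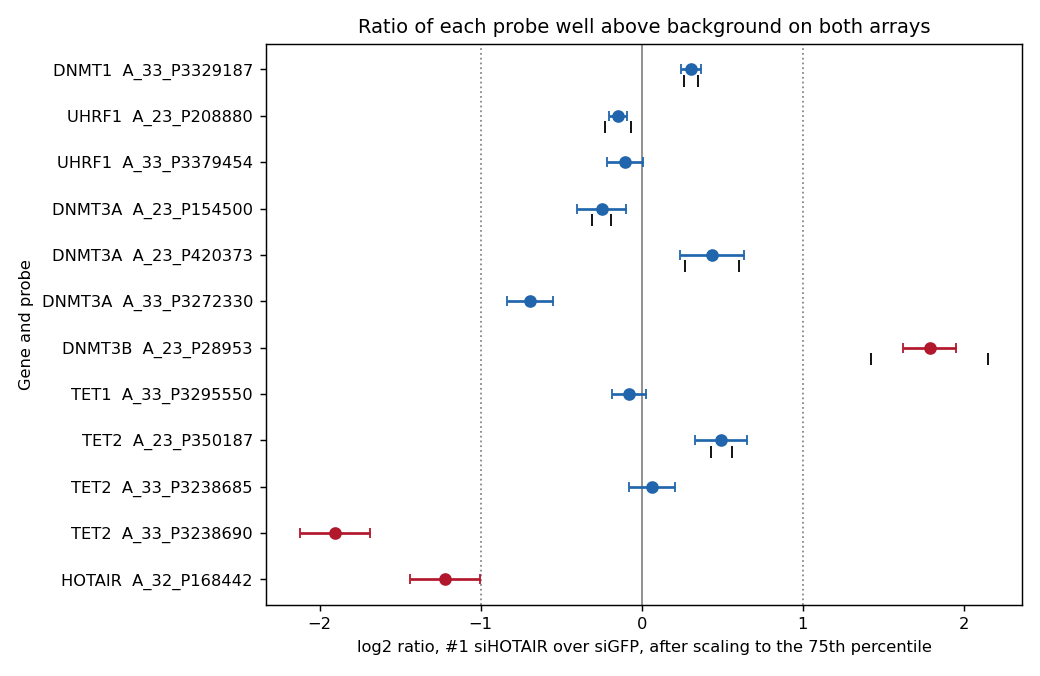
Log2 ratio of #1 siHOTAIR over siGFP for each probe well above background on both arrays. Points are the probe's ratio, horizontal bars 1 measurement SD, short black ticks the single spots, and dotted lines 2-fold; DNMT3B (1.79), 1 TET2 probe (-1.91) and HOTAIR (-1.22), in red, lie outside the lines.

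The oxidizing enzymes were read by TET1 and TET2 probes. The TET1 probe that was well above background had 1 spot, which read 869 against 889, a log2 ratio of -0.08 with an SD of 0.10, and the sign turned to 0.06 with scaling to the spike-in RNA. A second TET1 probe read 11.1 against 20.6, too dim on both arrays for a fold change. TET2 had 3 probes on both arrays, all for transcript NM_001127208. The probe with 2 spots read 198 and 188 against 142 and 123, and both spots were higher in #1 siHOTAIR-transfected cells. Its log2 ratio was 0.49 with an SD of 0.16. The next, with 1 spot, read 162 against 150, a log2 ratio of 0.06 with an SD of 0.14, and -0.00 without background correction. The last, also with 1 spot, read 64.2 against 233, 3.75-fold lower. Its log2 ratio was -1.91 with an SD of 0.22 and a software error of 0.31. The probes of TET2 thus gave 1 increase, 1 value within the error and 1 decrease for 1 transcript accession.

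The TET2 range of 2.40 was reached by 1 of the 309 genes with 3 probes, TET2 itself. Of all probes on both arrays, 25, or 0.117%, were at least as low as its lowest probe. That spot read 161 against 320 before background correction, and its ratio was -1.12 with normexp and -1.04 with no correction. It lay in row 20, within the first 144 rows. Single-spot probes in these rows were at least 2-fold lower in 110 of 6018 cases (1.83%), against 132 of 10118 (1.30%) in the other rows. The 72 spots around it had a median log2 ratio of 0.03. It has no second spot, and the part of array position was not tested. A further TET2 probe, for transcript NM_017628, read 8.41 and 8.91 against 6.34 and 13.3, too dim on both arrays for a fold change.

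**Figure D3:**
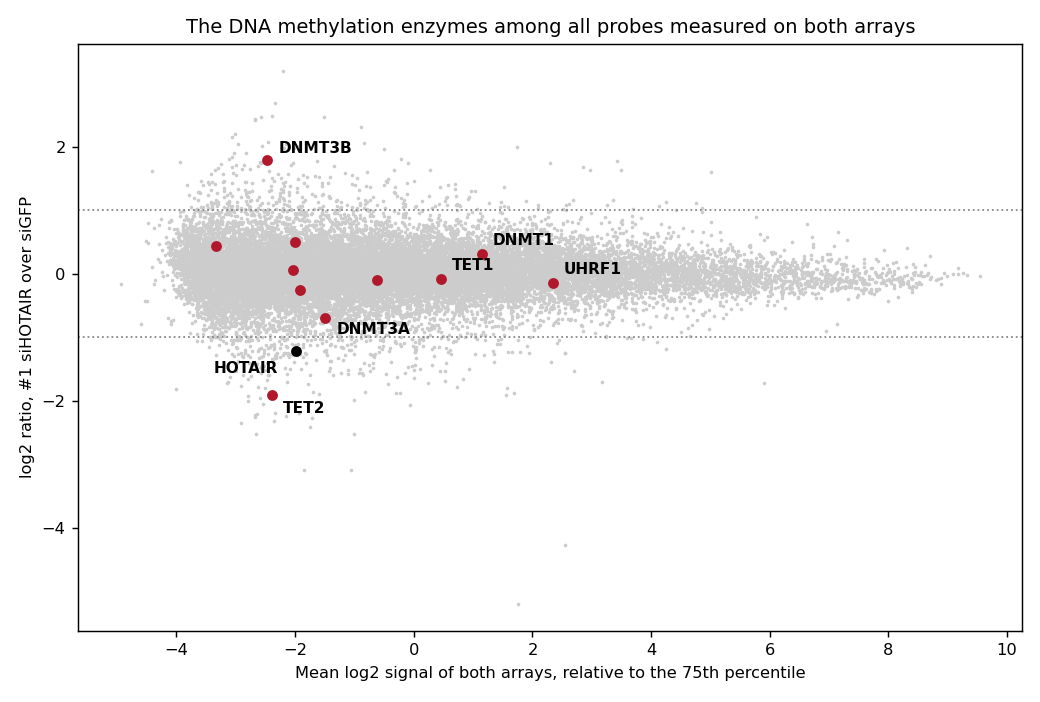
Log2 ratio against the mean log2 signal of both arrays relative to the 75th percentile, for all 21428 probes well above background on both arrays (grey), the DNA methylation enzymes (red) and HOTAIR (black). Dotted lines mark 2-fold; DNMT3B and the lowest TET2 probe lie at the outer edge of the grey cloud at dim signals, and DNMT1, UHRF1 and TET1 near 0 at brighter ones.

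**Figure D4:**
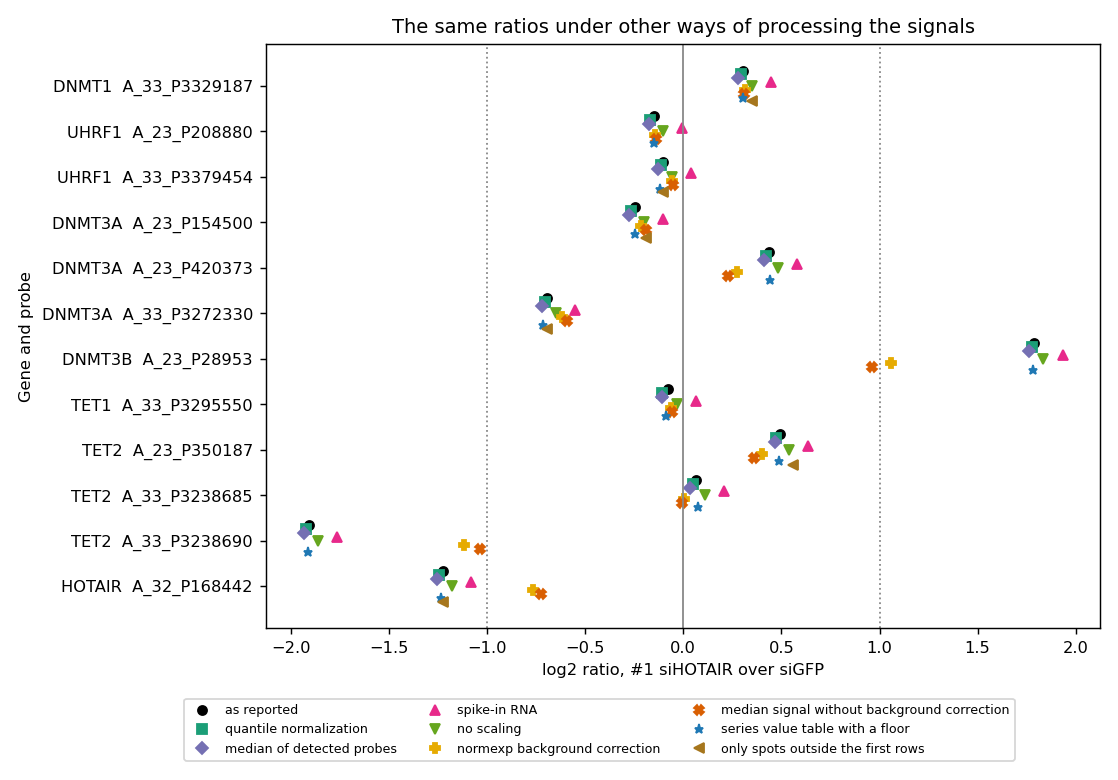
Log2 ratio of each probe under the reported processing and 8 other ways of processing the signals, with dotted lines at 2-fold. Omitting or modelling the background moved DNMT3B from 1.79 to 0.96 and 1.06 and the lowest TET2 probe from -1.91 to -1.04 and -1.12, and scaling to the spike-in RNA moved each ratio up by 0.14.

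Genes that act with these enzymes were read by the probe with the highest mean signal of each gene, beside 6.15% of all genes changed and a median ratio of 0.02. Of the 12 partners of maintenance methylation, 11 were measured and 0 changed 2-fold, with a median of 0.09. HELLS, a chromatin remodeller needed for DNA methylation, was the highest at 0.43, and CDCA7, which recruits HELLS, the lowest at -0.57. PRC2 had 6 genes measured, 0 changed, with a median of -0.09, from EZH1 at -0.25 to SUZ12 at 0.50. The 5 measured regulators of the histone marks read by the DNMT3 enzymes had a median of 0.22. The highest was NSD2, an H3K36 methyltransferase, at 0.88 (1.02 with scaling to the spike-in RNA, and 0.22 by the median of its probes), and the lowest KDM1A, an H3K4 demethylase, at -0.16.

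In the steps after oxidation, 16 of 17 genes were measured and 1 was at least 2-fold lower. GADD45B, a stress-induced gene linked to active demethylation, read 679 against 1347 by 2 spots, a log2 ratio of -1.03 with an SD of 0.07. This ratio lay just past 2-fold, and spike-in scaling gave -0.89 and no scaling -0.99. LIG3, the ligase of base excision repair, was the highest at 0.69. Of the 10 enzymes of 2-oxoglutarate and 2-hydroxyglutarate, 1 was at least 2-fold higher. OGDH, which consumes 2-oxoglutarate in the citric acid cycle, read 83.1 against 33.2, a log2 ratio of 1.28 by 2 spots with an SD of 0.20.

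The methyl-CpG readers had 8 genes measured, 0 changed, and a median of 0.16, from ZBTB4 at -0.41 to MBD2 at 0.69. Of the methionine and folate cycle, which supplies the methyl donor, 17 genes were compared, 15 of them on both arrays. Their median was -0.14 and 13 of 17 were below 0. BHMT and GNMT, both below 0, passed the filter through the siGFP array only. Scaling to the spike-in RNA raised all ratios by 0.14, as much as this median. The share of all genes below 0 was not computed, so the count is not read as a trait of the list. The 1 gene past 2-fold there was BHMT, which was well above background on the siGFP array only, at 23.4 against 7.96, and no fold is given. On both arrays this list ran from CBS at -0.53 to AHCYL2 at 0.45. The RNA and tRNA cytosine methyltransferases had 3 genes measured and a median of 0.00, from TRDMT1 at -0.18 to NSUN5 at 0.09.

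Genes known to be silenced by promoter methylation were mostly not well above background. Of 24 germline genes with a named probe, 21 were well above background on neither array. CTAG2, a cancer-testis antigen, read 256 against 131 with a log2 ratio of 0.93, or 1.07 with scaling to the spike-in RNA. TEX101, expressed in germ cells, was the lowest of the germline genes measured on both arrays, at 0.18. The remaining gene compared, TDRD1, was well above background on the siGFP array only, at 44.9 against 59.2. Its log2 ratio by 1 spot was -0.45, under 2 measurement SD of 0.28. Of 23 imprinted genes, 16 were measured and 0 changed 2-fold, with a median of 0.05. ZIM2 was the highest at 0.43 and CDKN1C, a cell cycle inhibitor, the lowest at -0.48.

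**Figure D5:**
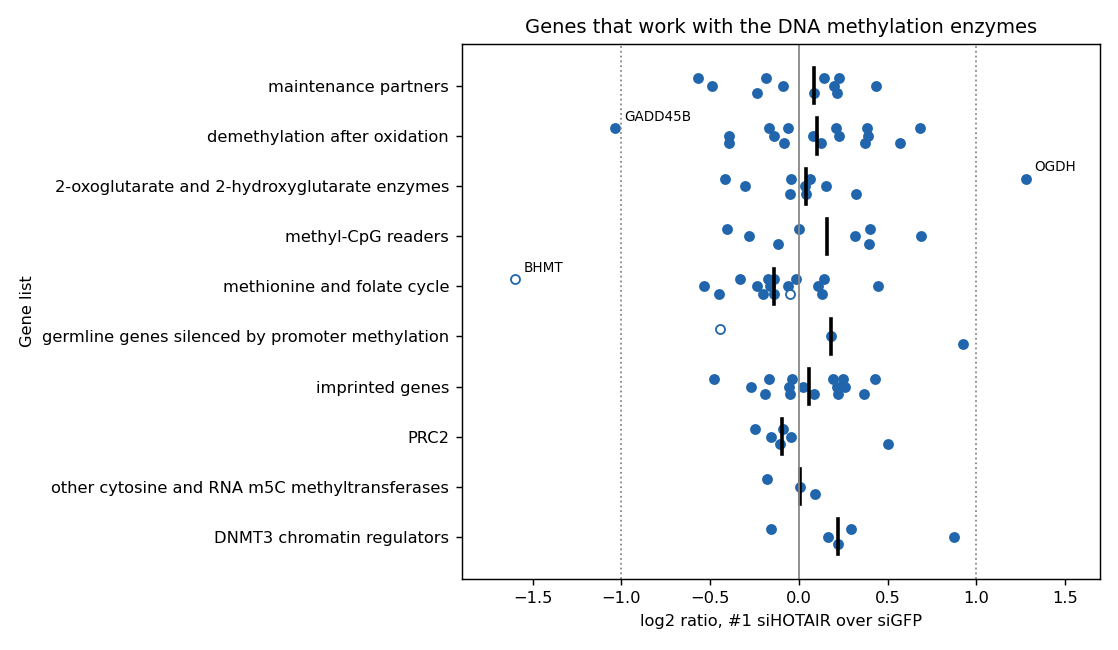
Log2 ratio of each gene in the lists of genes that act with the DNA methylation enzymes, by the probe with the highest mean signal. Filled points were well above background on both arrays, open points on 1 array, black bars are medians of the genes compared and dotted lines 2-fold; OGDH (1.28) and GADD45B (-1.03) are the points outside the lines that were measured on both arrays.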

How the data were processed

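RNA of 1 #1 siHOTAIR-transfected and 1 siGFP-transfected culture was measured. The authors labelled it, scanned the arrays and deposited the intensity of each spot, processed per the file headers by Feature Extraction 10.10.1.1 with background subtraction and no scaling between arrays. The deposited value table holds the background-subtracted intensity (largest difference 0). From these, log2 signals were set to the 75th percentile, outlier spots were left out, and spots of a probe were averaged (Python 3.11.15, pandas 2.3.3). Normexp (limma 3.58.1, offset 50) used the median signal, since the files give no mean signal. Names came from accessions matched to GRCh38.p14.

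The members and lists were chosen with earlier results of these data known. The text names every member probe, HOTAIR, and of each list the genes past 2-fold on both arrays or otherwise its highest and lowest. The measurement SD used 657 and 680 probes with 10 spots that were well above background on the array, in 6 bins of signal. This restriction was chosen after the unrestricted SD had been seen, in which the dimmest bins were uneven (0.13 and then 0.43 on the #1 siHOTAIR array); these include signals that the software had replaced by a surrogate value.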

Additional observations from a re-analysis of the deposited data

How the results depend on the processing

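The counts of family probes at least 2-fold higher (1) and lower (1) were recomputed under other scalings, background corrections, filters, spot summaries and thresholds. The higher count was 0 for the median signal without background correction. With only spots outside the first 144 rows both counts were 0, since neither changed probe has a spot there and 5 family probes remained. The lower count was 2 at 1.5-fold. List genes past 2-fold numbered 3, and 5 with no filter, 4 with scaling to the spike-in RNA, 2 without scaling and 2 with the filter on both arrays. With the spike-in RNA GADD45B was under 2-fold and CTAG2 and NSD2 past it, and without scaling GADD45B was under it. Of 104 ratios of family probes recomputed, 93 moved by less than 1 measurement SD, 11 moved further, and 0 of the ratios past 2-fold changed sign. The 93 include values that could not move. Keeping outlier spots or taking the median of spots changed none, since family probes had 0 outlier spots and 1 or 2 spots each. Probes with a single spot outside the first rows also kept their ratio there. The 93 are therefore not read as a measure of stability. Taking the measurement SD from all 999 probes with 10 spots, an alternative added after seeing the data, left 7 of the 11 probes beyond 2 SD, as before, with an SD of 0.16 for DNMT3B, 0.23 for the lowest TET2 probe and 0.18 for HOTAIR. No paired analysis was possible because each condition had 1 array. Dim signals limit the ratios of DNMT3B, DNMT3A, TET2 and OGDH, and spots of 1 array do not measure the spread between cultures.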
